A study of Zea mays with 18 samples.

Results

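Maize genes whose deposited name or description reads calmodulin, calcium-binding protein or calcium-dependent protein kinase were followed in seedling leaves through 48 h at 4 °C. Genes described as calcineurin B-like proteins or their partner kinases were left out. The rule matched 196 of 50118 genes, and 132 of these reached 1 FPKM (fragments per kilobase of gene, scaled for sequencing depth) in at least 3 of 18 libraries. Of the other 64 genes, 25 had no read in any library. The 132 members comprise 10 calmodulins, 34 calmodulin-like proteins (CMLs), 8 other calcium-binding proteins, 35 calcium-dependent protein kinases (CDPKs), 7 CDPK-related and calcium/calmodulin-dependent kinases, 3 calmodulin-dependent NAD kinases and 35 further proteins that bind or modify calmodulin. The last set holds 10 CAMTA transcription activators, 11 proteins of the calmodulin-binding protein 60 (CBP60) family, 11 calmodulin-binding receptor kinases and 3 others. Members lie on all 10 chromosomes. Names follow the deposited descriptions, most of which refer to rice or Arabidopsis proteins, and a number after CML or CDPK belongs to that name. Coordinates are those of the deposited table, whose genome build was not given in the sources used here.

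The groups were zmzfp69 plants after 0, 24 and 48 h at 4 °C and plants of the inbred line B73 after 0, 24 and 48 h at 4 °C, with 3 libraries each. All were seedlings with 3 leaves, raised at 25 °C under 16 h of light, and each library is labelled a biological replicate of 50 seedlings. The zmzfp69 line is in the B73 background, and its name refers to a zinc finger protein gene. It is called a mutant in the titles and a knock-down in the genotype field, and neither field gives the allele or the number of lines. No gene in the table carried the name zfp69 (0 matches), so the level of the targeted gene was not checked.

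Calcium enters the cytosol of plant cells within moments of chilling, and proteins with EF-hand motifs bind it and change shape. Calmodulin and the CMLs are sensors with no enzyme activity of their own, so they act by binding other proteins. CDPKs carry a sensor and a kinase in one chain and can phosphorylate their targets without a separate sensor. CAMTA factors, CBP60 proteins and calmodulin-binding receptor kinases are among the proteins that calmodulin binds, and in Arabidopsis some of them take part in cold or immune responses.

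Depth was 14.8 to 19.1 M reads per library, of which the members took 0.283 to 1.21%. Photosynthetic leaf markers (33 genes, 5 of them at 0 in every library) summed to 5538 to 55248 FPKM. Replicate 2 of zmzfp69 at 24 h stood apart from its group. On the first principal component (42.2% of the variance) it lay at -68.6, against 25.6 and 40.6 for the other two libraries of its group and -103 to -89.9 for the 0 h libraries of both genotypes. Its members summed to 2160 FPKM, within the range of the 0 h libraries, against 5012 and 9968 FPKM in the other two. One label field of this library reads 0 h, while its title, which was followed here, gives 24 h. The same field reads 0 h for replicate 3 of zmzfp69 at 24 h and replicates 2 and 3 at 48 h, which lay at 40.6, 111 and 112 on that component. Whether the library is mislabelled was not tested, so the counts at 24 h in zmzfp69 and the leading members are given with and without it. Replicate 1 of B73 at 48 h lay at 106 on the same component, against 46.6 and 45.3 for the other two.

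The summed level of the members was higher in all 48 h libraries than in any 0 h library, and a different gene led most libraries at each time. Summed over the 132 members, zmzfp69 libraries held 1974 to 2811 FPKM at 0 h, 2160 to 9968 FPKM at 24 h and 13053 to 16566 FPKM at 48 h. B73 libraries held 2073 to 2291 FPKM at 0 h, 6129 to 9548 FPKM at 24 h and 7230 to 13952 FPKM at 48 h. In 4 of 6 libraries at 0 h the highest member was CML29 (Zm00001d014559), with up to 12.7% of the summed level. At 24 h it was KIC (Zm00001d014491) in 5 of 6 libraries, with up to 31.7%, and the exception was replicate 2 of zmzfp69. At 48 h it was CML27 (Zm00001d029028) in 6 of 6 libraries, with 28.6 to 40.2% in zmzfp69 and 17.9 to 21.5% in B73. In bulk leaf RNA, a change in the share of a cell type and a change in RNA per cell cannot be told apart.

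At 24 h, 13 members were higher and 3 lower in zmzfp69 than at 0 h, and 17 were higher and 1 lower in B73 (limma, Benjamini-Hochberg adjusted p under 0.05, here termed called). Over all 23141 genes tested, 9.58% were called in zmzfp69 (3.76% higher and 5.82% lower) and 9.35% in B73 (5.26% higher and 4.09% lower). P-values here weigh a difference between group means against the spread of libraries within groups, estimated over all 6 groups. Fold changes are differences in log2(FPKM + 1), which understates the change of genes with low FPKM. Without replicate 2 of zmzfp69 at 24 h, 24 members were higher and 7 lower in zmzfp69 (15.2% of all genes called), and 26 were higher and 1 lower in B73 (12.2%). The B73 count changes too because all groups share one estimate of the spread. The median log2 fold change of the members was 0.08 in zmzfp69 and 0.33 in B73, and that of all genes was -0.02 in both.

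At 48 h, 56 members were higher and 17 lower in zmzfp69 than at 0 h, against 36.5% of all genes called (18.5% higher and 18% lower). In B73, 37 members were higher and 7 lower, against 23.2% of all genes called (12.7% higher and 10.5% lower). Median log2 fold changes were 0.55 in zmzfp69 and 0.46 in B73, and -0.03 for all genes in each. The split between directions depends on how libraries are scaled. With values scaled to library totals, the median of all genes moved to -0.63 in zmzfp69 and -0.44 in B73, and the split became 34 higher and 37 lower in zmzfp69 and 33 higher and 20 lower in B73. The median of the members lay above that of all genes by 0.58 in zmzfp69 and 0.49 in B73 with the deposited scaling, and by 0.45 and 0.49 with library totals. None of the 73 members called in zmzfp69 or the 44 called in B73 changed sign with library totals (0 of each), and 51 of the 73 and 40 of the 44 were still called in the same direction. Calls at 48 h in zmzfp69 that were lost this way include those of CDPK7 Zm00001d027480, CRLK1 Zm00001d024678, CBP60B Zm00001d039963, CBP60D Zm00001d012934, PICBP Zm00001d038062 and Zm00001d052415, and in B73 those of CaMRLK Zm00001d053518 and CBP60D Zm00001d012934. With the deposited scaling, markers of some cell types also differed between 48 h and 0 h without overlap. In zmzfp69, mesophyll markers (21 genes, 1 at 0 in every library) summed to 10230 to 23528 FPKM at 48 h and 3538 to 7837 FPKM at 0 h, and markers of dividing cells and the young leaf base to 2174 to 3811 FPKM at 48 h and 1599 to 1619 FPKM at 0 h. Pollen markers (22 genes, 6 tested) summed to 249 to 263 FPKM at 48 h and 127 to 168 FPKM at 0 h in that line. The guard cell list (1 gene) was lower there, at 4.17 to 8.51 FPKM at 48 h and 9.15 to 13.5 FPKM at 0 h. In B73, root markers (12 genes, 4 of them at 0 in every library and 4 tested) summed to 763 to 1279 FPKM at 48 h and 260 to 387 FPKM at 0 h. Their part in the member values was not tested. Members that reached the FPKM minimum in few libraries tend to differ between groups for that reason. The minimum was met in all 18 libraries by 87 members, and in 6 or fewer by 9.

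**Figure D1:**
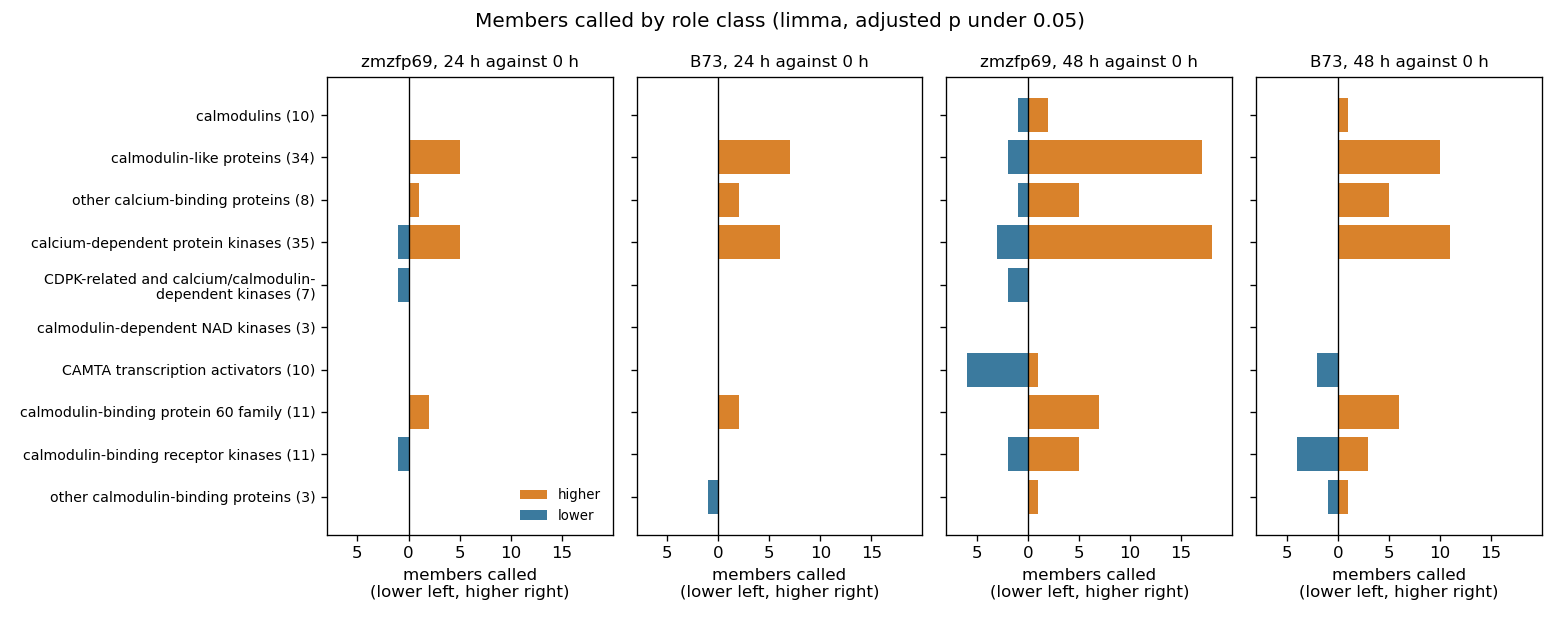
Number of members called higher (right) or lower (left) than at 0 h in each role class, by genotype and time, with class sizes in parentheses. At 48 h 17 calmodulin-like proteins were higher and 2 lower in zmzfp69 (10 and 0 in B73). Of the calcium-dependent protein kinases, 18 were higher and 3 lower in zmzfp69 (11 and 0 in B73). These classes, 34 and 35 of the 132 members, held 40 of the 73 calls in zmzfp69 and 21 of the 44 in B73, near their share of the members. CAMTA factors lay mainly on the lower side. With values scaled to library totals the kinases split 11 and 12 in zmzfp69 and 11 and 2 in B73.

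From 24 to 48 h, 39 members were higher and 8 lower in zmzfp69 (22.5% of all genes called, 13.5% higher and 8.95% lower), and 3 were higher and 1 lower in B73 (3.48%, 2.62% higher and 0.86% lower). Without replicate 2 of zmzfp69 at 24 h the zmzfp69 counts were 20 higher and 7 lower (13.2% of all genes). The calls in zmzfp69 from 24 to 48 h of CML19 Zm00001d025451, CML46 Zm00001d048913, CBP Zm00001d049940, CaMRLK Zm00001d053518 and CDPK8 Zm00001d013030 were made without it too (adjusted p of 0.00174 to 0.0354). With library totals they were 17 higher and 24 lower in zmzfp69 and 2 higher and 0 lower in B73. The comparisons of 24 h and of 48 h with 0 h share the 0 h libraries of each genotype, so their values are given side by side. The 9 members that were higher in each of the 4 comparisons with 0 h were CML16 (Zm00001d008573), CML15 (Zm00001d009985), CML31 (Zm00001d042056), a putative calmodulin-like protein 2 (Zm00001d052415), CP1 (Zm00001d047618), CDPK4 (Zm00001d015100), calcium dependent protein kinase4 (Zm00001d026018), CDPK7 (Zm00001d027480) and calcium dependent protein kinase7 (Zm00001d051502). In all, 59 members were higher in at least 1 of the 4 comparisons, 21 were lower in at least 1, and 52 were called in none. None was higher in one and lower in another (0 members). These counts over the 4 comparisons were not made for all genes, so they are not read as a trait of the members.

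Of the 10 calmodulins, 2 were higher and 1 lower at 48 h in zmzfp69 (36.5% of all genes called), and 1 was higher and 0 lower in B73 (23.2%). At 24 h 0 of 10 were called in either genotype (9.58% of all genes called in zmzfp69 and 9.35% in B73). Without replicate 2 of zmzfp69, 0 of 10 were called at 24 h in zmzfp69 and 1 was higher in B73 (15.2% and 12.2% of all genes called). Their median log2 fold change at 48 h was 0.11 in zmzfp69 and 0.12 in B73, and with library totals it turned to -0.67 and -0.43. With the deposited scaling, their summed level was 843 to 902 FPKM at 48 h and 403 to 643 FPKM at 0 h in zmzfp69. In B73 it was 791 to 1033 FPKM at 48 h and 408 to 666 FPKM at 0 h. Like the medians, the gaps between the times in these sums depend on the scaling. The gene named calmodulin3 (Zm00001d028948; chromosome 1, 52518690 to 52523101, plus strand), described as Calmodulin-1/11/16, had 58.7, 124 and 66 FPKM at 0 h, 179.9, 126 and 294 FPKM at 24 h and 283, 415 and 456 FPKM at 48 h in zmzfp69. B73 libraries had 75, 94 and 66.1 FPKM at 0 h, 272, 235 and 189 FPKM at 24 h and 559, 129 and 412 FPKM at 48 h. It was higher at 48 h in zmzfp69 (log2 fold change 2.25, SE 0.49, adjusted p = 0.00261) and in B73 (log2 fold change 1.98, SE 0.49, adjusted p = 0.00976). In both genotypes all 48 h libraries lay above all 0 h libraries. Values after ± are here and in what follows SDs of 3 libraries. Another gene, calmodulin2 (Zm00001d040323), was higher at 48 h in zmzfp69, at 186 ± 29.2 FPKM against 101 ± 16.8 FPKM at 0 h (log2 fold change 0.87, SE 0.33, adjusted p = 0.0488). With library totals this call was lost (adjusted p = 0.961), and with TMM scaling 1 calmodulin rather than 2 was called higher. In B73 it had 169 ± 47.9 FPKM at 48 h and 99.5 ± 36.7 FPKM at 0 h and was not called (adjusted p = 0.0941). The calmodulin gene Zm00001d047597 was lower at 48 h in zmzfp69, at 8.82 ± 2.6 FPKM against 16.3 ± 0.46 FPKM at 0 h (log2 fold change -0.85, SE 0.31, adjusted p = 0.0402). It had 12.1 ± 5.75 FPKM at 48 h and 17.3 ± 2.19 FPKM at 0 h in B73, where it was not called. Of the remaining 7 calmodulins, the most abundant was Zm00001d010650, with 139 ± 26.4 FPKM at 48 h and 111 ± 48 FPKM at 0 h in zmzfp69. Its B73 means were 131 ± 5.04 FPKM at 48 h and 119 ± 36.2 FPKM at 0 h in B73. Calmodulin genes code for nearly identical proteins, and how reads shared between them were counted was not given in the sources used here.

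The 2 largest rises of any member at 48 h were of CMLs, in zmzfp69 and in B73 alike. Of 34, 5 were higher and 0 lower at 24 h in zmzfp69 (9.58% of all genes called), and 7 were higher and 0 lower in B73 (9.35%). Without replicate 2 of zmzfp69, 9 were higher and 2 lower at 24 h in zmzfp69. At 48 h 17 were higher and 2 lower in zmzfp69 (36.5% of all genes called), and 10 were higher and 0 lower in B73 (23.2%). The median log2 fold change at 48 h was 0.93 in each genotype, and 0.48 in zmzfp69 and 0.46 in B73 with library totals. With that scaling 12 were higher and 5 lower in zmzfp69 and 10 higher and 2 lower in B73. Summed over the class, zmzfp69 held 691 to 1125 FPKM at 0 h, 744 to 3236 FPKM at 24 h and 7165 to 10889 FPKM at 48 h. B73 held 664 to 780.0 FPKM at 0 h, 2530.4 to 3404 FPKM at 24 h and 3632 to 6929 FPKM at 48 h.

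CML27 (Zm00001d029028; chromosome 1, 55246805 to 55247371, minus strand) had the highest mean level of any member. In zmzfp69 it had 76.7, 212 and 52.1 FPKM at 0 h, 584, 78.7 and 605 FPKM at 24 h and 6653, 4476 and 3732 FPKM at 48 h. The level in B73 was 44.2, 102 and 57.3 FPKM at 0 h, 645, 1206 and 596 FPKM at 24 h and 2999, 1360.3 and 1353 FPKM at 48 h. The 48 h libraries of both genotypes and the 24 h libraries of B73 lay above all 0 h libraries of their genotype, while replicate 2 of zmzfp69 at 24 h lay within the 0 h range. It rose at 48 h in zmzfp69 (log2 fold change 5.65, SE 0.72, adjusted p = 5.99e-05) and in B73 (log2 fold change 4.77, SE 0.72, adjusted p = 0.000469), and at 24 h in B73 (log2 fold change 3.58, SE 0.72, adjusted p = 0.00601). At 24 h in zmzfp69 it was not called with all libraries (log2 difference 1.67, SE 0.72, adjusted p = 0.151) and was called without replicate 2 (log2 fold change 2.64, adjusted p = 0.00964). The 3 zmzfp69 libraries at 48 h lay above the 3 B73 libraries, but the difference between the genotypes was not called (log2 difference 1.44, 95% interval -0.08 to 2.96, adjusted p = 0.38).

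Of the 4 CMLs called higher in both genotypes at both times, the 3 with the highest means are given here. CML16 (Zm00001d008573; chromosome 8, 13343616 to 13344233, minus strand) had 24.5, 44.5 and 23.1 FPKM at 0 h, 277, 41 and 631 FPKM at 24 h and 859.6, 1199 and 905 FPKM at 48 h in zmzfp69. Its B73 values were 12.8, 30.5 and 44 FPKM at 0 h, 238, 468 and 551 FPKM at 24 h and 778, 252 and 729 FPKM at 48 h. It rose in zmzfp69 by a log2 fold change of 2.68 at 24 h and 5.01 at 48 h, and in B73 by 3.88 and 4.28 (adjusted p = 0.0401, 0.000238, 0.00588 and 0.00152 in that order). Only replicate 2 of zmzfp69 at 24 h overlapped the 0 h libraries. The CML15 gene Zm00001d009985 (chromosome 8, 93476338 to 93476907, plus strand) had 2.17, 11.8 and 5.65 FPKM at 0 h, 55, 10.3 and 86.2 FPKM at 24 h and 252, 519 and 237 FPKM at 48 h in zmzfp69. In B73 the same gene had 4.94, 4.77 and 11.8 FPKM at 0 h, 76.9, 112 and 104 FPKM at 24 h and 202, 74.7 and 159.7 FPKM at 48 h. Its log2 fold changes were 2.56 at 24 h and 5.61 at 48 h in zmzfp69 and 3.68 at 24 h and 4.15 at 48 h in B73, and again replicate 2 of zmzfp69 at 24 h alone lay among the 0 h values. CML31 (Zm00001d042056; chromosome 3, 148916300 to 148916812, plus strand) had 4.56, 22.2 and 1.97 FPKM at 0 h, 65.5, 10.4 and 92.8 FPKM at 24 h and 311, 278 and 242 FPKM at 48 h in zmzfp69. It had 4.34, 4.98 and 3.62 FPKM at 0 h, 67.1, 126 and 131 FPKM at 24 h and 177, 147 and 83.2 FPKM at 48 h in B73. The log2 fold changes of CML31 were 2.51 at 24 h and 5.25 at 48 h in zmzfp69, and 4.30 at 24 h and 4.62 at 48 h in B73. Without that replicate the log2 fold changes at 24 h in zmzfp69 were 3.79 for CML16, 3.43 for CML15 and 3.44 for CML31. In B73 the 24 h and 48 h libraries of these 3 genes overlapped one another.

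**Figure D2:**
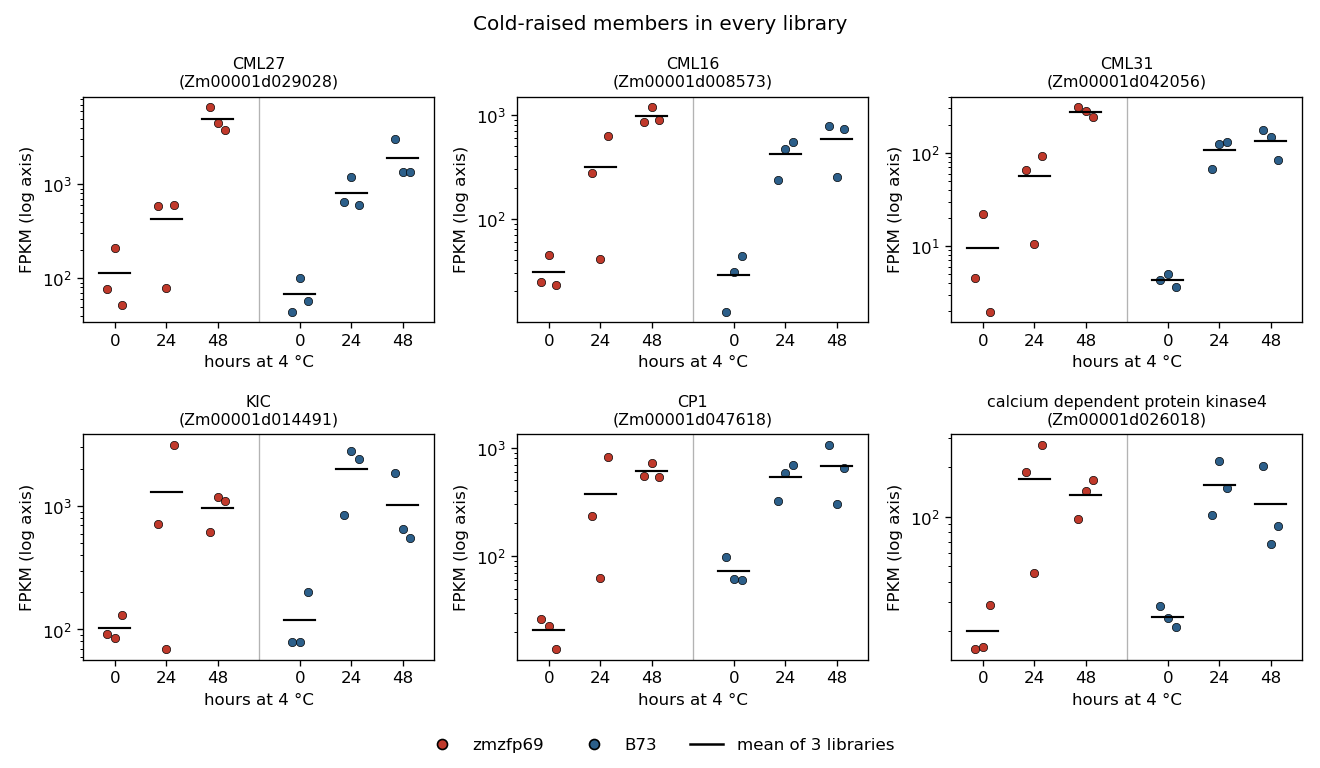
FPKM (log axis) of 6 members in every library against hours at 4 °C, zmzfp69 on the left of each panel and B73 on the right, with bars at group means of 3 libraries. In zmzfp69 at 24 h 1 library lies near the 0 h values in most panels (10.4 FPKM for CML31, against 65.5 and 92.8 FPKM in the other two), while CML27 reaches 3732 to 6653 FPKM in zmzfp69 and 1353 to 2999 FPKM in B73 at 48 h.

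CML19 and CML46 had their highest means at 48 h in both genotypes. CML19 (Zm00001d025451) had 7.92, 6.05 and 1.17 FPKM at 0 h, 7.73, 1.13 and 3.89 FPKM at 24 h and 260.4, 124 and 125 FPKM at 48 h in zmzfp69. Its B73 values were 2.23, 1.83 and 0.683 FPKM at 0 h, 0.634, 10.7 and 1.35 FPKM at 24 h and 31.6, 99.5 and 9.43 FPKM at 48 h. At 48 h it exceeded the 24 h level in zmzfp69 (log2 fold change 5.16, SE 0.84, adjusted p = 0.000942) and in B73 (log2 fold change 3.19, SE 0.84, adjusted p = 0.0476), although 1 library of B73 at 48 h overlapped those at 24 h. CML46 (Zm00001d048913) had 6.36, 8.22 and 5.09 FPKM at 0 h, 18.1, 0.698 and 1.59 FPKM at 24 h and 273, 92.6 and 92.7 FPKM at 48 h in zmzfp69. CML46 values in B73 were 9.92, 6.43 and 0.192 FPKM at 0 h, 0.381, 22.2 and 3.83 FPKM at 24 h and 18.7, 109.8 and 10.9 FPKM at 48 h. In zmzfp69 the 48 h libraries lay above all earlier ones and the change from 24 h was called (log2 fold change 4.93, SE 1.12, adjusted p = 0.00676), while in B73 the 48 h libraries overlapped the 24 h ones and no comparison was called. The CML14 gene Zm00001d039110 had 16.8, 12.7 and 19.3 FPKM at 0 h, 48.2, 6.96 and 64.9 FPKM at 24 h and 148, 171 and 114 FPKM at 48 h in zmzfp69. The level of this gene in B73 was 14.9, 17.2 and 28.2 FPKM at 0 h, 40.4, 95.2 and 76.6 FPKM at 24 h and 87, 53.7 and 55 FPKM at 48 h. It was called at 48 h in zmzfp69 (log2 fold change 3.07, SE 0.59, adjusted p = 0.00115) and not in B73 (adjusted p = 0.0532), where its mean was higher at 24 h than at 48 h, and in both genotypes the 48 h and 0 h libraries did not overlap.

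The name CML22 refers to a rice protein for Zm00001d003197 and to an Arabidopsis protein for Zm00001d004480, so the shared number does not make them a pair. Zm00001d003197 was higher at 48 h in zmzfp69 (log2 fold change 2.99, SE 0.63, adjusted p = 0.00216) and in B73 (log2 fold change 3.03, SE 0.63, adjusted p = 0.0038). Zm00001d004480 (chromosome 2, 114516177 to 114517353, minus strand) had 17.2, 7.73 and 28.7 FPKM at 0 h, 5.12, 19.5 and 8.58 FPKM at 24 h and 0, 1.32 and 1.73 FPKM at 48 h in zmzfp69. It had 2.84, 6.77 and 16.7 FPKM at 0 h, 14.6, 8.24 and 7.18 FPKM at 24 h and 3.16, 13.4 and 13.1 FPKM at 48 h in B73. It fell in zmzfp69 at 48 h, where all libraries lay below those of 0 h and 24 h (log2 fold change -3.18, SE 0.66, adjusted p = 0.00182), and in B73 the 48 h and 0 h libraries overlapped. The CML14 gene Zm00001d053188 was higher at 24 h in zmzfp69, at 3.93, 9.55 and 4.73 FPKM against 1.11, 0.984 and 1.53 FPKM at 0 h (log2 fold change 1.60, SE 0.39, adjusted p = 0.02; without replicate 2, log2 fold change 1.27, adjusted p = 0.049), and was at 0.25, 1.47 and 3.01 FPKM at 48 h. Its B73 values were low throughout, 1.15, 0.615 and 0.88 FPKM at 0 h, 2.1, 1.32 and 0.76 FPKM at 24 h and 2.01, 3.41 and 1.33 FPKM at 48 h. CML29 (Zm00001d014559; chromosome 5, 53118750 to 53119226, plus strand), the leading member before cold, had 152, 177 and 256 FPKM at 0 h, 107, 226 and 187 FPKM at 24 h and 26.1, 56 and 79.7 FPKM at 48 h in zmzfp69. In B73 the level of CML29 was 115, 132 and 231 FPKM at 0 h, 630.1, 156 and 166 FPKM at 24 h and 109, 675 and 339 FPKM at 48 h. It fell at 48 h in zmzfp69, with no overlap with 0 h (log2 fold change -1.94, SE 0.65, adjusted p = 0.0305), while in B73 the groups overlapped and it was not called (adjusted p = 0.314). The test of the difference between these 48 h changes of CML29 did not pass (log2 difference -2.88, adjusted p = 0.482). Among CMLs called in no cold comparison, caltractin1 (Zm00001d022160), a centrin by its name, stayed at 11.6 to 23.5 FPKM in zmzfp69 and 12.1 to 19.3 FPKM in B73 over all libraries.

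The other calcium-binding proteins had the highest class median. Of 8 genes, 1 was higher at 24 h in zmzfp69 (3 without replicate 2) and 2 in B73. Over all genes, 9.58% were called at 24 h in zmzfp69 and 9.35% in B73. At 48 h 5 were higher and 1 lower in zmzfp69 (36.5% of all genes called), and 5 higher and 0 lower in B73 (23.2%). Their median log2 fold change at 48 h was 2.94 in zmzfp69 and 2.76 in B73, and stayed positive with library totals (2.10 and 2.22). CP1 (Zm00001d047618; chromosome 9, 137184849 to 137185370, minus strand), a calcium-binding protein whose description gives no further role, had 26, 22.3 and 13.7 FPKM at 0 h, 234, 62.8 and 829 FPKM at 24 h and 553, 728 and 534 FPKM at 48 h in zmzfp69. B73 had 98.3, 61 and 59.9 FPKM at 0 h, 319, 588 and 697 FPKM at 24 h and 1069.8, 304 and 650.3 FPKM at 48 h. In both genotypes all cold libraries lay above all 0 h libraries, and CP1 was called in zmzfp69 at 24 h (log2 fold change 3.46, SE 0.70, adjusted p = 0.00732) and 48 h (log2 fold change 4.84, SE 0.70, adjusted p = 0.000147). Without replicate 2 the 24 h call in zmzfp69 was kept (log2 fold change 4.39, adjusted p = 0.000398). The log2 fold changes in B73 were 2.82 at 24 h and 3.05 at 48 h (adjusted p = 0.0187 and 0.00637). Before cold the zmzfp69 libraries lay below those of B73, a difference that was not called (adjusted p = 0.79).

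A pair of genes is described as KIC, which in Arabidopsis binds a kinesin-like calmodulin-binding protein and takes part in trichome shape. Zm00001d014491 (chromosome 5, 50064948 to 50065346, plus strand) had 91.2, 85.2 and 131 FPKM at 0 h, 719, 68.9 and 3156 FPKM at 24 h and 620.0, 1191 and 1101 FPKM at 48 h in zmzfp69. The B73 libraries had 79.2, 78.7 and 202 FPKM at 0 h, 856, 2779.6 and 2407 FPKM at 24 h and 1868, 659 and 551 FPKM at 48 h. It rose in B73 at 24 h (log2 fold change 4.04, SE 0.98, adjusted p = 0.0173) and 48 h (log2 fold change 3.01, SE 0.98, adjusted p = 0.0368) and in zmzfp69 at 48 h (log2 fold change 3.20, SE 0.98, adjusted p = 0.019). The 24 h change in zmzfp69 was not called (log2 difference 2.42, SE 0.98, adjusted p = 0.13), and replicate 2 lay at 68.9 FPKM, below every 0 h library of the line. Without that replicate it was called (log2 fold change 3.89, adjusted p = 0.00321). The other KIC gene, Zm00001d053926 (chromosome 4, 243692664 to 243693167, minus strand), went the opposite way in zmzfp69, with 14, 16.6 and 21.9 FPKM at 0 h, 10.9, 8.01 and 9.05 FPKM at 24 h and 5.9, 4.48 and 5.51 FPKM at 48 h. B73 showed 5.01, 6.28 and 4.84 FPKM at 0 h, 4.67, 7.79 and 3.61 FPKM at 24 h and 3.28, 9.03 and 8.89 FPKM at 48 h. It was lower at 48 h in zmzfp69 (log2 fold change -1.54, SE 0.33, adjusted p = 0.00215) with no overlap, and the 48 h libraries of B73 overlapped its 0 h libraries.

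Both genes described as calcium-binding protein CBP rose at 48 h in both genotypes. Zm00001d049940 had 9.28, 17.5 and 11.1 FPKM at 0 h, 27.4, 17.5 and 37.5 FPKM at 24 h and 191, 149 and 193 FPKM at 48 h in zmzfp69. Its level in B73 was 11.4, 14.9 and 6.72 FPKM at 0 h, 19.8, 24.1 and 15.6 FPKM at 24 h and 148, 102 and 74.4 FPKM at 48 h. It rose between 24 and 48 h in zmzfp69 (log2 fold change 2.70, SE 0.36, adjusted p = 0.000266) and in B73 (log2 fold change 2.35, SE 0.36, adjusted p = 0.00324), with no overlap between the times. For Zm00001d052458 the 48 h libraries held 293, 264 and 358 FPKM in zmzfp69, against 16.3, 39.1 and 13.7 FPKM at 0 h (log2 fold change 3.81, SE 0.48, adjusted p = 6.17e-05). In B73 they held 222, 177 and 125 FPKM, against 32.2, 25.4 and 10.6 FPKM at 0 h (log2 fold change 2.98, SE 0.48, adjusted p = 0.000774). Neither of the 2 PBP1 genes, named for a protein that binds the PINOID kinase in Arabidopsis, was called, and the one with larger values, Zm00001d043258, had 3.26, 0.409 and 26.6 FPKM at 24 h in zmzfp69 and 15.7, 39.2 and 15.8 FPKM at 24 h in B73.

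Of 35 CDPKs, 18 were higher and 3 lower at 48 h in zmzfp69 (36.5% of all genes called), and 11 were higher and 0 lower in B73 (23.2%). At 24 h 5 were higher and 1 lower in zmzfp69 (9.58% of all genes called), and 6 were higher and 0 lower in B73 (9.35%). Without replicate 2 of zmzfp69, 9 were higher and 1 lower at 24 h in zmzfp69. With library totals 11 were higher and 12 lower at 48 h in zmzfp69 and 11 higher and 2 lower in B73. Their median log2 fold change at 48 h was 0.96 in zmzfp69 and 0.45 in B73, and with library totals 0.44 and 0.02. Their summed level was 320.2 to 369 FPKM at 0 h, 360.1 to 1162 FPKM at 24 h and 1391 to 1709.7 FPKM at 48 h in zmzfp69. In B73 it was 292 to 365 FPKM at 0 h, 584 to 1026 FPKM at 24 h and 770.1 to 1546 FPKM at 48 h.

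CDPK4 (Zm00001d015100; chromosome 5, 75366376 to 75373323, plus strand) had the highest mean level among the CDPKs, with 18.4, 24 and 23.6 FPKM at 0 h, 119, 27.1 and 186 FPKM at 24 h and 325, 322 and 222 FPKM at 48 h in zmzfp69. B73 plants had 30.9, 21.8 and 15 FPKM at 0 h, 80.1, 175 and 139 FPKM at 24 h and 223, 220.4 and 134 FPKM at 48 h. CDPK4 rose at 24 h in zmzfp69 (log2 fold change 1.91, SE 0.54, adjusted p = 0.0379) and in B73 (log2 fold change 2.47, SE 0.54, adjusted p = 0.00989), and without replicate 2 of zmzfp69 it was called at 24 h there too (log2 fold change 2.71, adjusted p = 0.000821). At 48 h it was higher still in the mean of each genotype (log2 fold change 3.65, SE 0.54, adjusted p = 0.000186 in zmzfp69 and log2 fold change 3.06, SE 0.54, adjusted p = 0.00134 in B73). Every cold library lay above every 0 h library of its genotype. Calcium dependent protein kinase4 (Zm00001d026018; chromosome 10, 136174872 to 136179753, plus strand), described as CDPK13, had 15.5, 16 and 28.7 FPKM at 0 h, 188, 45.4 and 274 FPKM at 24 h and 96.8, 142 and 166 FPKM at 48 h in zmzfp69. Its level was 28.3, 24.1 and 21.1 FPKM at 0 h, 101, 219 and 149 FPKM at 24 h and 203, 68.3 and 87.3 FPKM at 48 h in B73. It was called at 24 h in zmzfp69 (log2 fold change 2.73, SE 0.56, adjusted p = 0.00852) and B73 (log2 fold change 2.57, SE 0.56, adjusted p = 0.01), and in zmzfp69 also without replicate 2 (log2 fold change 3.49, adjusted p = 0.0004). Its mean was no higher at 48 h than at 24 h in either genotype, with overlapping libraries. Means of CDPK7 (Zm00001d027480; chromosome 1, 6270311 to 6275109, plus strand) were also highest at 24 h. They were 18.9 ± 3.78 FPKM at 0 h, 96.1 ± 61.1 FPKM at 24 h and 50.6 ± 9.91 FPKM at 48 h in zmzfp69. In B73 they were 10.4 ± 3.31 FPKM at 0 h, 70.4 ± 31.5 FPKM at 24 h and 54.8 ± 17.6 FPKM at 48 h in B73 (SD, n = 3). That gene overlaps a second CDPK7 gene on the opposite strand, Zm00001d027481, along part of its length. Whether reads were assigned by strand was not given in the sources used here, so reads in the overlap may not be separable.

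Several CDPKs had their highest mean at 48 h in both genotypes. CDPK10 (Zm00001d013109) had 1.4, 3.77 and 1.31 FPKM at 0 h, 21, 2.71 and 26.4 FPKM at 24 h and 73.6, 64.1 and 130.0 FPKM at 48 h in zmzfp69. Levels in B73 were 5, 4.14 and 1.13 FPKM at 0 h, 9.33, 29.5 and 17.7 FPKM at 24 h and 77, 29.5 and 31.8 FPKM at 48 h. It was called at 48 h in zmzfp69 (log2 fold change 4.85, SE 0.67, adjusted p = 0.000117) and in B73 (log2 fold change 3.40, SE 0.67, adjusted p = 0.0027), without overlap with 0 h. CDPK20 is the name of 3 members, of which Zm00001d006621 had 56.6 ± 29.8 FPKM at 48 h and 2.17 ± 1.29 FPKM at 0 h in zmzfp69 (log2 fold change 4.14, SE 0.48, adjusted p = 3.18e-05). In B73 this gene had 31.4 ± 14.8 FPKM at 48 h and 1.48 ± 0.65 FPKM at 0 h in B73 (log2 fold change 3.63, SE 0.48, adjusted p = 0.000182). The second, Zm00001d021835, had log2 fold changes at 48 h of 3.39 in zmzfp69 and 2.79 in B73, both called. The third, Zm00001d011666, was called in zmzfp69 (1.97) and not in B73 (1.55). CDPK24 in rice has been described as a positive regulator of cold tolerance, and 2 members carry that name. Zm00001d053016 had 4.27, 3.47 and 4.53 FPKM at 0 h, 17.7, 6.53 and 31.9 FPKM at 24 h and 58.3, 35.7 and 50.3 FPKM at 48 h in zmzfp69 and was called at 24 h (log2 fold change 1.72, SE 0.52, adjusted p = 0.0487) and 48 h (log2 fold change 3.25, SE 0.52, adjusted p = 0.000306), and at 24 h also without replicate 2 (log2 fold change 2.29, adjusted p = 0.00706). For B73 the values were 8.16, 5.08 and 3.6 FPKM at 0 h, 14.5, 23.7 and 12 FPKM at 24 h and 59.6, 22.2 and 14.6 FPKM at 48 h, with a call at 48 h (log2 fold change 2.14, SE 0.52, adjusted p = 0.00881). The other, Zm00001d004812, had 16.1 ± 11.2 FPKM at 48 h and 7.87 ± 3.05 FPKM at 0 h in zmzfp69. It had 10.5 ± 5.01 FPKM at 48 h and 10.9 ± 3.9 FPKM at 0 h in B73, and was not called.

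Fewer CDPKs were called lower than higher at 48 h with the deposited scaling (3 and 18 in zmzfp69, 0 and 11 in B73). With library totals this held in B73 (2 lower and 11 higher) but not in zmzfp69 (12 lower and 11 higher). The calls that follow are those with the deposited scaling. CDPK17, also linked to cold tolerance in rice, is the name of 2 members. Of these, Zm00001d007912 had 0.699, 1.75 and 1.57 FPKM at 48 h in zmzfp69. It had 3.7, 4.44 and 4.25 FPKM at 0 h in that line (log2 fold change -1.16, SE 0.27, adjusted p = 0.00358). In B73 it had 2.35, 1.88 and 3.39 FPKM at 48 h and 3.88, 3.62 and 3.22 FPKM at 0 h and was not called. The other CDPK17 gene, Zm00001d036008, ranged from 3.28 to 11.2 FPKM in zmzfp69 and 3.36 to 9.90 FPKM in B73 and was called nowhere. CDPK8 (Zm00001d013030; chromosome 5, 3472230 to 3476498, minus strand) had 10.9, 9 and 11.9 FPKM at 0 h, 10.5, 15 and 14.3 FPKM at 24 h and 1.22, 2.08 and 7.36 FPKM at 48 h in zmzfp69. Its B73 level was 8.88, 13.2 and 14.6 FPKM at 0 h, 17.3, 9.01 and 14.9 FPKM at 24 h and 11.2, 10.1 and 10.6 FPKM at 48 h. It was lower at 48 h in zmzfp69 than at 0 h (log2 fold change -1.58, SE 0.39, adjusted p = 0.00557) and than at 24 h (log2 fold change -1.87, SE 0.39, adjusted p = 0.00407), with no overlap, whereas the B73 groups overlapped. CDPK18 (Zm00001d005164) was lower at 48 h in zmzfp69, at 1.94 ± 0.538 FPKM against 6.11 ± 2.32 FPKM at 0 h (log2 fold change -1.24, SE 0.30, adjusted p = 0.00506). CDPK16 (Zm00001d010579) was called in 1 of the 4 comparisons with 0 h, lower at 24 h in zmzfp69, at 1.03, 0.391 and 0.712 FPKM against 4.03, 19.5 and 3.53 FPKM at 0 h (log2 fold change -2.20, SE 0.50, adjusted p = 0.0148; without replicate 2, log2 fold change -2.06, adjusted p = 0.0262). The genotype difference in that 24 h change did not pass (adjusted p = 0.549).

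**Figure D3:**
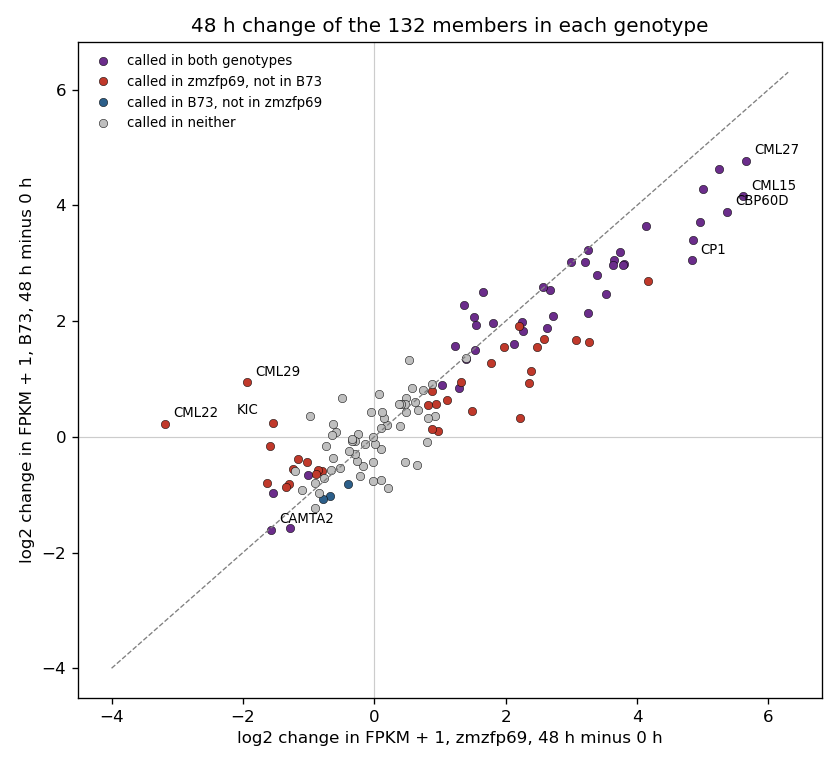
Log2 fold change at 48 h against 0 h of each of the 132 members, zmzfp69 on the horizontal axis and B73 on the vertical axis, coloured by the genotype in which it was called, with a dashed line of equal change. CML27 lies at 5.65 and 4.77, and CML22 (Zm00001d004480) at -3.18 and 0.23. In both genotypes 37 points were called higher and 4 lower, and 0 were called in opposite directions. The overlap between genotypes was not counted over all genes.

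Of the 7 CDPK-related and calcium/calmodulin-dependent kinases, 0 were higher and 2 lower at 48 h in zmzfp69 (36.5% of all genes called) and 0 were called in B73 (23.2%). At 24 h 0 were higher and 1 lower in zmzfp69, with or without replicate 2 (9.58% of all genes called with it), and 0 were called in B73. The median log2 fold change at 48 h was -0.74 in zmzfp69 and -0.43 in B73, and with library totals it was -1.52 with 5 lower and -0.85 with 2 lower. Calcium/calmodulin dependent protein kinase1 (Zm00001d052944), whose counterparts decode calcium signals in root symbiosis, had 2.71, 2.3 and 1.56 FPKM at 0 h, 0.642, 0.211 and 0.385 FPKM at 24 h and 0.34, 0.0369 and 0.499 FPKM at 48 h in zmzfp69. The values in B73 were 2.98, 1.91 and 1.94 FPKM at 0 h, 2.94, 1.43 and 1 FPKM at 24 h and 0.341, 1.64 and 0.775 FPKM at 48 h. It was lower in zmzfp69 at 24 h (log2 fold change -1.17, SE 0.30, adjusted p = 0.025; without replicate 2, log2 fold change -1.06, adjusted p = 0.0473) and 48 h (log2 fold change -1.30, SE 0.30, adjusted p = 0.00378), where no cold library reached a 0 h library. The most abundant kinase of the class, Zm00001d005059, lay between 7.01 and 23.8 FPKM in zmzfp69 and between 7.64 and 27.2 FPKM in B73 and was not called. None of the 3 calmodulin-dependent NAD kinases, whose Arabidopsis relative makes NADP in the oxidative burst, was called at 24 or 48 h in either genotype, and their levels lay between 0.628 and 28.9 FPKM over all libraries.

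Among CAMTA transcription activators the calls ran mainly downward at 48 h. Of 10, 1 was higher and 6 lower in zmzfp69 (36.5% of all genes called), and 0 were higher and 2 lower in B73 (23.2%). At 24 h 0 were called in either genotype (2 lower in zmzfp69 without replicate 2). Over all genes, 9.58% were called at 24 h in zmzfp69 and 9.35% in B73. The median log2 fold change at 48 h was -0.84 in zmzfp69 and -0.61 in B73, and with library totals it was -1.54 with 0 higher and 6 lower and -1.10 with 0 higher and 6 lower. In Arabidopsis CAMTA3 binds the promoter of the cold-response gene CBF2. Of the 4 members described as CAMTA3, Zm00001d022185 had 8.23, 10.4 and 7.97 FPKM at 0 h, 5.23, 7.87 and 5.8 FPKM at 24 h and 3.54, 4.15 and 4.01 FPKM at 48 h in zmzfp69. In B73 the levels were 6.94, 9.32 and 6.68 FPKM at 0 h, 6, 5 and 5.02 FPKM at 24 h and 5.18, 3.61 and 4.65 FPKM at 48 h. At 48 h it lay below the 0 h range in both genotypes and was called in zmzfp69 (adjusted p = 0.00251) and B73 (log2 fold change -0.66, SE 0.22, adjusted p = 0.04). Zm00001d014286 had 5.41 ± 0.762 FPKM at 48 h and 10.8 ± 0.307 FPKM at 0 h in zmzfp69 (log2 fold change -0.88, SE 0.23, adjusted p = 0.00768). In B73 it had 7.13 ± 1.7 FPKM at 48 h and 11.5 ± 1.29 FPKM at 0 h in B73 (adjusted p = 0.0559, not called). The other two, Zm00001d030518 and Zm00001d047209, had positive log2 values at 48 h in both genotypes (0.47 and 0.62 in zmzfp69, 0.56 and 0.60 in B73) and were not called.

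A CAMTA2 gene, Zm00001d043159, showed the strongest fall of the class in B73. It had 2.31, 2.45 and 8.71 FPKM at 0 h, 6.68, 4.18 and 1.21 FPKM at 24 h and 0.259, 0.709 and 0.935 FPKM at 48 h in zmzfp69. B73 libraries had 4.7, 4.84 and 6.57 FPKM at 0 h, 3.28, 8.58 and 7.32 FPKM at 24 h and 1.09, 1.28 and 0.858 FPKM at 48 h. It was lower at 48 h than at 0 h in zmzfp69 (log2 fold change -1.58, SE 0.46, adjusted p = 0.0151) and B73 (log2 fold change -1.61, SE 0.46, adjusted p = 0.0206). From 24 to 48 h it was the 1 member called lower in B73 (log2 fold change -1.76, SE 0.46, adjusted p = 0.0483). In both genotypes all 48 h libraries lay below all earlier ones. CAMTA-transcription factor 1 (Zm00001d003958; chromosome 2, 72202914 to 72211422, minus strand), described as CAMTA4, had 11.1, 16 and 8.46 FPKM at 0 h, 4.6, 7.45 and 6.14 FPKM at 24 h and 2.78, 2.14 and 4.56 FPKM at 48 h in zmzfp69 and fell at 48 h (log2 fold change -1.63, SE 0.28, adjusted p = 0.000577). In B73 it had 10.6, 9.5 and 7.27 FPKM at 0 h, 8.23, 5.96 and 5.69 FPKM at 24 h and 4.1, 5.81 and 4.56 FPKM at 48 h and was not called at 48 h (adjusted p = 0.0541), although its 48 h libraries lay below all 0 h libraries there too. CAMTA-transcription factor 3 (Zm00001d042313) was the 1 member of the class that was higher at 48 h in zmzfp69, at 11.6, 9.98 and 5.75 FPKM against 3.1, 4.49 and 3.12 FPKM at 0 h (log2 fold change 1.11, SE 0.38, adjusted p = 0.0316). With library totals it was not called.

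The CBP60 family holds transcription factors that in Arabidopsis include regulators of salicylic acid synthesis. Of 11 members, 2 were higher at 24 h in each genotype (9.58% of all genes called in zmzfp69 and 9.35% in B73). At 48 h 7 were higher and 0 lower in zmzfp69 (36.5% of all genes called), and 6 were higher and 0 lower in B73 (23.2%). The class median of log2 fold change at 48 h was 1.29 in zmzfp69 and 0.84 in B73, and with library totals 0.50 and 0.33, with 2 higher and 1 lower in zmzfp69 and 4 higher and 0 lower in B73. CBP60D Zm00001d008570 (chromosome 8, 13286218 to 13288733, plus strand) had 4.5, 11.8 and 5.47 FPKM at 0 h, 55.7, 2.76 and 74.9 FPKM at 24 h and 534, 388 and 153 FPKM at 48 h in zmzfp69. In B73 the same gene had 11.2, 12.1 and 0.486 FPKM at 0 h, 58, 215 and 26.4 FPKM at 24 h and 221, 61.1 and 54.5 FPKM at 48 h. It rose at 48 h in zmzfp69 (log2 fold change 5.37, SE 1.10, adjusted p = 0.00174) and in B73 (log2 fold change 3.88, SE 1.10, adjusted p = 0.0193), without overlap with 0 h in either. CBP60B Zm00001d039963 had 42.5, 65.4 and 16.7 FPKM at 0 h, 117, 40.2 and 174 FPKM at 24 h and 231, 336 and 135 FPKM at 48 h in zmzfp69. Its B73 libraries had 26.9, 35.2 and 5.32 FPKM at 0 h, 167, 210.5 and 103 FPKM at 24 h and 154, 47.9 and 179.6 FPKM at 48 h. It was called in B73 at 24 h (log2 fold change 3.06, SE 0.73, adjusted p = 0.0158) and 48 h (log2 fold change 2.58, SE 0.73, adjusted p = 0.0192) and in zmzfp69 at 48 h (log2 fold change 2.57, SE 0.73, adjusted p = 0.0129). CBP60C Zm00001d023843 had 162 ± 70.2 FPKM at 48 h and 18.2 ± 12.7 FPKM at 0 h in zmzfp69 (log2 fold change 3.25, SE 0.88, adjusted p = 0.0101). The means in B73 were 69.1 ± 24.9 FPKM at 48 h and 9.03 ± 7.1 FPKM at 0 h in B73 (log2 fold change 3.23, SE 0.88, adjusted p = 0.0164). A further CBP60C, Zm00001d032368, ran from 0 to 9.91 FPKM in zmzfp69 and from 0.0738 to 7.09 FPKM in B73, and its 48 h libraries overlapped its 0 h libraries in both genotypes.

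Receptor kinases that bind calmodulin were called in both directions. At 24 h 0 were higher and 1 lower in zmzfp69 (1 and 1 without replicate 2) and 0 were called in B73. Over all genes, 9.58% were called at 24 h in zmzfp69 and 9.35% in B73. At 48 h 5 of 11 were higher and 2 lower in zmzfp69 (36.5% of all genes called), and 3 were higher and 4 lower in B73 (23.2%). At 48 h the median log2 fold change was near 0 (0.02 in zmzfp69 and 0.03 in B73) and was negative with TMM scaling (-0.07 and -0.02) and with library totals (-0.79 and -0.44). With library totals 3 were higher and 5 lower in zmzfp69 and 1 higher and 4 lower in B73. CRLK1 (Zm00001d024678), the counterpart of an Arabidopsis kinase needed for full cold tolerance, had 0.767, 1.62 and 0.521 FPKM at 0 h, 0.319, 0.491 and 0.413 FPKM at 24 h and 5.28, 2.02 and 3.71 FPKM at 48 h in zmzfp69. B73 plants held 0.785, 0.618 and 0.171 FPKM at 0 h, 1.48, 0.679 and 0.462 FPKM at 24 h and 3.99, 5.26 and 1.83 FPKM at 48 h. At these low levels it was higher at 48 h in zmzfp69 (log2 fold change 1.22, SE 0.34, adjusted p = 0.0118) and in B73 (log2 fold change 1.57, SE 0.34, adjusted p = 0.00482), with no overlap with 0 h. CRLK2 (Zm00001d045756) had 10.2 ± 5.31 FPKM at 48 h and 17.1 ± 3.42 FPKM at 0 h in zmzfp69, where it was not called. It had 8.48 ± 5.21 FPKM at 48 h and 17.6 ± 3.91 FPKM at 0 h in B73 (log2 fold change -1.08, SE 0.36, adjusted p = 0.0435), where 1 library at 48 h overlapped those at 0 h.

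CaMRLK (Zm00001d053518) was higher at 48 h than at either earlier time. It had 15.4, 17.3 and 9.37 FPKM at 0 h, 5.74, 4.3 and 7.26 FPKM at 24 h and 98.1, 48.3 and 68.8 FPKM at 48 h in zmzfp69. In B73 it had 11.8, 9.87 and 3.36 FPKM at 0 h, 5.38, 4.89 and 2.28 FPKM at 24 h and 58.6, 28.6 and 14.5 FPKM at 48 h. The change from 24 to 48 h was called in zmzfp69 (log2 fold change 3.39, SE 0.49, adjusted p = 0.000477) and in B73 (log2 fold change 2.60, SE 0.49, adjusted p = 0.0102). Among 4 genes described as CRCK3, which in Arabidopsis is a substrate of the immune kinase MPK4, Zm00001d020118 was lower at 48 h in zmzfp69 (1.34, 3.16 and 2.42 FPKM, against 8.18, 7.04 and 10.1 FPKM at 0 h; log2 fold change -1.54, SE 0.29, adjusted p = 0.000903). It was lower in B73 too (2.26, 4.47 and 4.08 FPKM, against 7.02, 6.24 and 10.7 FPKM at 0 h; log2 fold change -0.97, SE 0.29, adjusted p = 0.0237). The CRCK3 gene Zm00001d025799 was higher at 48 h in zmzfp69 at 108, 72.3 and 35.9 FPKM, against 5.16, 8.86 and 4.41 FPKM at 0 h (log2 fold change 3.27, SE 0.71, adjusted p = 0.00261). B73 libraries had 25.9, 42.2 and 7.7 FPKM at 48 h and 11.8, 10.6 and 1.29 FPKM at 0 h, which overlapped. CRCK2 Zm00001d012929 was lower in zmzfp69 at 24 h (log2 fold change -1.38, SE 0.37, adjusted p = 0.0288; without replicate 2, log2 fold change -1.34, adjusted p = 0.0447) and 48 h (log2 fold change -1.28, SE 0.37, adjusted p = 0.0135) and in B73 at 48 h (log2 fold change -1.57, SE 0.37, adjusted p = 0.0071), with no overlap with 0 h in any of them. Of 2 genes described as PICBP, a calmodulin-binding protein, Zm00001d038062 was higher at 48 h with log2 fold changes of 1.52 in zmzfp69 and 2.07 in B73. The other, Zm00001d011874, was lower in B73 at 24 h (-1.16) and 48 h (-0.82), at levels of 0 to 1.74 FPKM over all libraries.

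**Figure D4:**
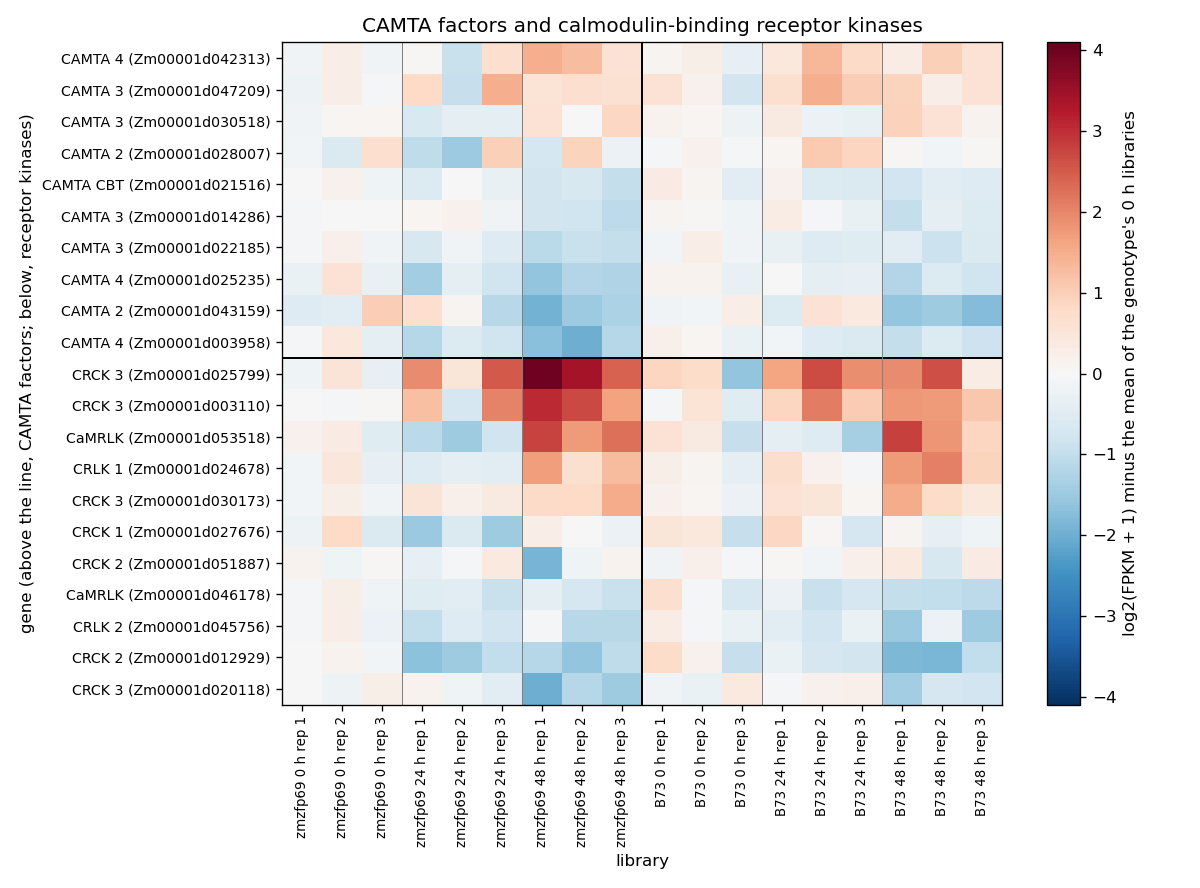
Log2(FPKM + 1) of the 10 CAMTA factors (above the line) and 11 calmodulin-binding receptor kinases (below it) in each library, minus the mean of the 0 h libraries of the same genotype, zmzfp69 on the left and B73 on the right. Genes run from the highest to the lowest 48 h change in zmzfp69 within each class; 6 CAMTA genes were called lower at 48 h in zmzfp69, and the receptor kinases range from a log2 fold change of 3.27 (CRCK3 Zm00001d025799) to -1.54 (CRCK3 Zm00001d020118).

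The comparison of genotypes at a given time asks whether these genes differ between zmzfp69 and B73 plants. No member was called at 0, 24 or 48 h by limma (0 of 132 at each, against 0.212, 0.411 and 0.333% of all genes), and limma-voom on recovered reads called 0 at each time as well. At an unadjusted p under 0.05 there were 5, 11 and 19 members at 0, 24 and 48 h by limma and 5, 14 and 18 by voom. These are 3.79, 8.33 and 14.4% of the members by limma, near the 5.25, 10.6 and 14% of all genes. Without replicate 2 of zmzfp69 at 24 h, 0 members were called at 24 h (0.203% of all genes), and 13 had an unadjusted p under 0.05. The genotype difference in the change from 0 h was called for 0 members at 24 h and 0 at 48 h (0.00432 and 0.00864% of all genes), with 4 and 8 at an unadjusted p under 0.05 by limma (3.03 and 6.06% of the members, against 6.2 and 7.45% of all genes) and 7 and 10 by voom, which called 0 at either time. Of the 56 members higher at 48 h in zmzfp69, 37 (66.1%) were also higher in B73, which is 100% of the 37 called higher there. Of the 17 lower in zmzfp69, 4 (23.5%) were lower in B73, which is 57.1% of the 7 called there. The overlap was not counted over all genes, of which 36.5% were called at 48 h in zmzfp69 and 23.2% in B73. It is therefore not read as a trait of the members. A call in one genotype and not in the other does not show that they differ, and the tests of the difference above called none.

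The largest genotype differences are given as values. At 48 h CML29 had the most negative one (log2 difference -2.56, 95% interval -3.95 to -1.17, adjusted p = 0.116), with all zmzfp69 libraries (26.1 to 79.7 FPKM) below all B73 libraries (109 to 675 FPKM). CML19 had the most positive one (log2 difference 2.30, 95% interval 0.53 to 4.08, adjusted p = 0.239). At 24 h these were the CML14 gene Zm00001d053188 (log2 difference 1.52, SE 0.39, adjusted p = 0.119) and PBP1 Zm00001d043258 (log2 difference -2.03, SE 0.94, adjusted p = 0.467). At 0 h the KIC gene Zm00001d053926 was at 17.5 ± 4.02 FPKM in zmzfp69 and 5.37 ± 0.786 FPKM in B73 without overlap (log2 difference 1.52, SE 0.33, adjusted p = 0.0906), and CP1 had the most negative difference (log2 difference -1.78, SE 0.70, adjusted p = 0.79). In the change from 0 to 48 h the extremes were the CML27 gene Zm00001d047535 (log2 difference 1.88, adjusted p = 0.622) and CML22 Zm00001d004480 (log2 difference -3.41, adjusted p = 0.374). In the change from 0 to 24 h they were CML14 Zm00001d053188 (1.28, adjusted p = 0.747) and CBP60C Zm00001d023843 (-2.44, adjusted p = 0.852). Markers of dividing cells and the young leaf base (98 genes, of which 28 were at 0 in every library and 47 were tested) summed to 2174 to 3811 FPKM in zmzfp69 and 939 to 1596 FPKM in B73 at 48 h. Mesophyll markers (21 genes, 16 tested) summed to 10230 to 23528 FPKM in zmzfp69 and 6911 to 8475 FPKM in B73 at 48 h. The guard cell list (1 gene) was lower in zmzfp69, at 4.17 to 8.51 FPKM against 9.98 to 15.7 FPKM in B73 at 48 h. These sums carry the deposited scaling, and the part of these differences in the member values was not tested.

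CML7 Zm00001d035095 (chromosome 6, 4940987 to 4941433, minus strand) had lower values in zmzfp69 than in B73 at every time, though the difference was called at none. It had 19.3, 23.1 and 30.5 FPKM at 0 h, 12.9, 29.9 and 21.9 FPKM at 24 h and 6.46, 15.7 and 17.8 FPKM at 48 h in zmzfp69. The level in B73 was 79.3, 62.6 and 62.1 FPKM at 0 h, 58.4, 46.2 and 64.9 FPKM at 24 h and 52.2, 43.9 and 24.7 FPKM at 48 h. At 0 h, 24 h and 48 h every zmzfp69 library lay below every B73 library of that time, with log2 differences of -1.46, -1.41 and -1.57 (adjusted p = 0.327, 0.146 and 0.109, none called). In a contrast of genotypes averaged over the 3 times, added after the values had been seen, it was the only member called (1 of 132, near the 0.653% of all genes, 0.393% higher and 0.259% lower), and 17 members had an unadjusted p under 0.05 (10.5% of all genes). Because the same values were seen first, the p-values of this contrast are no independent test of them. Its log2 difference there was -1.48 (SE 0.22, adjusted p = 0.00386), with means of 19.7 FPKM in 9 zmzfp69 libraries (6.46 to 30.5) and 54.9 FPKM in 9 B73 libraries (24.7 to 79.3). Leaving out any 1 library gave an adjusted p of 0.00353 to 0.0135. Within 1 Mb of this gene 2 of 14 other genes tested (14.3%) were called in the same contrast, both lower in zmzfp69, and over its whole chromosome 32 of 1958 (1.63%) were called. Whether the values of CML7 and of these neighbours share a cause was not tested. The second gene described as CML7, Zm00001d049665 on chromosome 4, had 55.3, 53.7 and 67.4 FPKM at 0 h, 47.5, 44.6 and 59 FPKM at 24 h and 83.6, 110.2 and 84.6 FPKM at 48 h in zmzfp69. It had 73.8, 58.8 and 88 FPKM at 0 h, 52.4, 71.5 and 94.9 FPKM at 24 h and 61.3, 50.9 and 43 FPKM at 48 h in B73, and the genotypes overlapped at 0 and 24 h, while at 48 h the zmzfp69 libraries lay above those of B73.

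**Figure D5:**
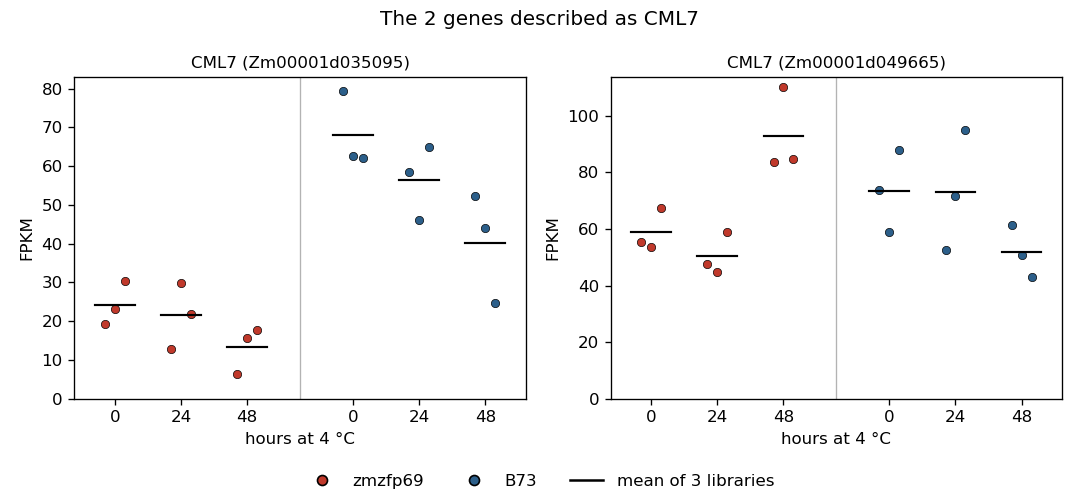
FPKM of the 2 genes described as CML7 in every library against hours at 4 °C, zmzfp69 on the left and B73 on the right of each panel, with bars at group means of 3 libraries. For Zm00001d035095 the zmzfp69 libraries (6.46 to 30.5 FPKM) lie below the B73 libraries (24.7 to 79.3 FPKM) of the same time, and for Zm00001d049665 they do not.

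Some members are neighbours on a chromosome, and 7 pairs lie within 100000 bases of each other. CBP60D Zm00001d008570 and CML16 Zm00001d008573 are 54882 bases apart on chromosome 8 and rose together, by 5.37 and 5.01 (log2) at 48 h in zmzfp69 and 3.88 and 4.28 in B73. CRCK2 Zm00001d012929 and CBP60D Zm00001d012934 are 29031 bases apart on chromosome 5 and went opposite ways, -1.28 and 1.29 in zmzfp69 and -1.57 and 0.84 in B73. On chromosome 7 a pair described as CDPK22 overlaps on opposite strands, and Zm00001d021139 was called higher at 48 h in both genotypes (2.13 in zmzfp69 and 1.61 in B73), while Zm00001d021138 was not called (-0.52 and -0.54). A pair of calmodulin genes on chromosome 6 (Zm00001d038543 and Zm00001d038545) also overlaps, on the same strand, and neither was called.

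Other genes of calcium signalling were counted from their names, with the deposited scaling only. Over all genes tested, 18.5% were higher and 18% lower at 48 h in zmzfp69, and 12.7% higher and 10.5% lower in B73. At 48 h 12 of 30 calcium pumps and exchangers, which remove calcium from the cytosol, were higher and 2 lower in zmzfp69, and 10 were higher and 1 lower in B73. Calcium-transporting ATPase 10 (Zm00001d028093) stood at 3089 ± 356 FPKM at 48 h and 21.5 ± 7.63 FPKM at 0 h in zmzfp69 (log2 fold change 7.15). Its B73 means were 1276 ± 721 FPKM at 48 h and 11.4 ± 7.21 FPKM at 0 h in B73 (log2 fold change 6.70). Of 32 calcium entry channels, 7 were higher and 2 lower in zmzfp69 and 5 higher and 2 lower in B73. Among them, cyclic nucleotide-gated ion channel 2 (Zm00001d034076) was lower in zmzfp69 (3.93 ± 2.09 FPKM at 48 h, 17.9 ± 4.98 FPKM at 0 h) and in B73 (6.74 ± 1.56 FPKM at 48 h, 15.7 ± 3.83 FPKM at 0 h). The parallel sensor system of calcineurin B-like proteins and their kinases (52 genes) had 16 higher and 8 lower in zmzfp69 and 12 higher and 3 lower in B73. Of 8 annexins, 2 were higher and 2 lower in zmzfp69 and 0 were called in B73. Of 6 respiratory burst oxidases, which make superoxide and are phosphorylated by CDPKs in Arabidopsis, homolog F (Zm00001d020609) alone was called, at 56.7 ± 4.50 FPKM at 48 h and 5.43 ± 0.464 FPKM at 0 h in zmzfp69. In B73 it was at 39.1 ± 14.8 FPKM at 48 h and 6.56 ± 0.770 FPKM at 0 h in B73. Of 13 genes matching DREB or CBF, 2 of which code for a ribonucleoprotein subunit of the same abbreviation, 6 were higher and 1 lower in zmzfp69 and 7 higher and 0 lower in B73.

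The members nearest the FPKM minimum, judged by the third highest of their 18 values, were a gene model added in processing and described as CDPK7 (1.12 FPKM), CML16 Zm00001d039944 (1.18 FPKM) and CaMRLK Zm00001d046178 (1.24 FPKM). Just under it were CML19 Zm00001d011841 (0.978 FPKM), calmodulin-interacting protein 111 Zm00001d049140 (0.754 FPKM) and Zm00001d004998 (0.642 FPKM). The last is described as CDPK17 of Arabidopsis. CML16 Zm00001d039944 was at 0 in every 0 h library and reached at most 1.48 FPKM in the cold, and of these 3 members only CaMRLK was called, lower at 48 h in B73 (log2 fold change -1.03, SE 0.30, adjusted p = 0.0219).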

How the data were processed

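The deposited table holds FPKM values of 50118 genes in 18 libraries, which the authors made from poly(A)-selected strand-specific libraries, per the labels. Per the submitters' processing notes, reads were handled with fastp, HISAT2 (version 2.0.5) and featureCounts (version 1.5.0-p3), and the notes also name DESeq2 (version 1.20.0); the genome build and counting settings were not given in the sources used here. Every FPKM value was a whole number of reads (within 0.01 read), which gave the depth of 14.8 to 19.1 M reads per library. FPKM of a library also carries its scaling, which differed from its read total by 0.672 to 1.50 times. Genes with 1 FPKM or more in at least 3 libraries (23141) were tested on log2(FPKM + 1) with limma 3.58.1 in R 4.3.3 (6 group means, mean-variance trend), and p-values were Benjamini-Hochberg adjusted over all of them. In simulated data of the same size for B73 at 48 h against 0 h, 89% of 4-fold and 98% of 8-fold changes were recovered. Of the calls made there, 6.5% were false. The simulation gave all genes the same fixed dispersion, had no library that stood apart, and changed only genes with many reads. It therefore does not give the recovery in the real libraries, where the SE of named members reached 1.10.

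Groups follow the titles, also for the 4 zmzfp69 libraries (replicates 2 and 3 at 24 h and at 48 h) whose description field reads 0 h. Members and lists were chosen with earlier results of these data known. Genes were named by rule: in each comparison of cold with 0 h, the 5 called members that rose most and the 4 that fell most, given a mean of 5 FPKM or more in the higher group. In the other comparisons the rule took up to 3 called members per direction, or the largest difference each way where none was called, and it added the member of highest mean in each class. Other members named were chosen after their values were seen. NAD kinases were set apart from calmodulins after their descriptions were read. Alternatives were a pseudocount of 0.1, no filter, library totals or TMM as scaling, limma-voom on recovered reads, only the groups compared, the replicate number as a block, and each library left out in turn. None of the members' gene IDs matched the reference table (0 matches), so no sequences were used.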

Additional observations from a re-analysis of the deposited data

How the results depend on the processing

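All counts here are of members called. Between 24 and 48 h in B73 the 4 became 2 with a pseudocount of 0.1, without a filter, with library totals or with voom, and 0 with only the libraries of the groups compared. Fitting only the libraries compared gave 1 at 24 h in zmzfp69, which was not among the 16 (0 of them were still called), and 16 of the 47 from 24 to 48 h in zmzfp69. Leaving out 1 library in turn gave 3 to 31 at 24 h in zmzfp69, 6 to 27 at 24 h in B73, 57 to 75 at 48 h in zmzfp69, 20 to 53 at 48 h in B73, 26 to 51 from 24 to 48 h in zmzfp69 and 1 to 5 in B73. Between genotypes it gave 0 to 1 at 0 h, 0 at 24 h, 0 to 2 at 48 h, 0 for either difference in change and 1 to 2 for the mean over times. At 24 h in zmzfp69 the count was 31 without replicate 2 of zmzfp69 at 24 h (15 of the 16 kept), 3 without replicate 1 of zmzfp69 at 0 h, 4 without replicate 1 at 24 h, 6 without replicate 2 at 0 h or replicate 3 at 24 h, and 7 without replicate 3 at 0 h. In B73 at 24 h it was 6 without replicate 2 at 24 h, 10 without replicate 2 at 0 h and 11 without replicate 3 at 24 h. In B73 at 48 h it was 20 without replicate 1 at 48 h. From 24 to 48 h in zmzfp69 it was 26 without replicate 1 at 48 h and 27 without replicate 2 at 24 h. With replicate 1 of B73 at 48 h left out, KIC Zm00001d053926 at 0 h and CML29 at 48 h were called between genotypes. CDPK8 was called at 48 h without replicate 3 of zmzfp69 at 48 h, and the CML27 gene Zm00001d047535 and Zm00001d041871 without replicate 2 of B73 at 48 h. None of the calls named by rule changed direction (0 reversed); called under every alternative were 8 of 9 at 48 h in zmzfp69, 4 of 9 at 48 h in B73, 0 of 7 at 24 h in zmzfp69, 4 of 5 at 24 h in B73, 3 of 6 from 24 to 48 h in zmzfp69 and 0 of 4 in B73. With the replicate number as a block the counts were 14 at 24 h and 74 at 48 h in zmzfp69, 17 and 44 in B73, 47 and 4 from 24 to 48 h in zmzfp69 and B73, 0 between genotypes at each time and 1 for the mean. Same-numbered libraries did not deviate together (median r 0.03 over 45 pairs, 14 above 0.1), so the numbers were not taken to pair samples. The causes of these shifts were not tested. Levels under about 1 FPKM rest on few reads.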
